A study of Mus musculus with 6 samples.

Results

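The VEGF and angiopoietin pathways are described here through 10 genes, of 31053 in the gene table: the ligands Vegfa, Vegfc, Angpt1 and Angpt2, the receptors Flt1, Kdr, Flt4 and Tek, and the co-receptors Nrp2 and Eng. They were picked by name as core parts of both pathways, not by a measured value, and each symbol matched 1 row of the table. Nuclear RNA was sequenced from single nuclei (10x Chromium droplets) of kidney cortex of FVB/N mice. The control group was 3 Klf4 fl/fl mice, which carry the floxed alleles without Cre. The knockout group was 3 Klf4 fl/fl mice with Podocin-Cre, a transgene that drives recombination in podocytes, so that every library carries the floxed Klf4 alleles and only podocytes of the knockout group are meant to lose the gene. The sources used here do not give age, sex or litter. With n = 3 libraries a group, p-values measure the spread between these libraries.

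Podocytes wrap the capillaries of the glomerulus and form the outer face of its filter. They are a textbook source of VEGF-A, which crosses the filter to the fenestrated endothelium and acts there on KDR (VEGFR2), the main signalling receptor, while FLT1 (VEGFR1) binds the ligand tightly and limits it. Angiopoietin 1 activates the endothelial receptor TEK (TIE2) and quiets vessels, and angiopoietin 2 mostly opposes it. VEGF-C acts through FLT4 (VEGFR3), for which NRP2 is a co-receptor, and ENG (endoglin) is a TGF-beta co-receptor of endothelium. The comparison asks whether these signals differ, in podocytes and in the vessels they serve, when podocytes lose Klf4.

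In GENCODE vM21 on GRCm38, the assembly that the submitters' processing notes call mm10, Vegfa (ENSMUSG00000023951) lies at chr17:46016993-46032369 on the minus strand. Flt1 (ENSMUSG00000029648) lies at chr5:147561604-147726011 and Kdr (ENSMUSG00000062960) at chr5:75932827-75978458, both on the minus strand. Tek (ENSMUSG00000006386) lies at chr4:94739289-94874976 and Vegfc (ENSMUSG00000031520) at chr8:54077606-54187096, both on the plus strand. Vegfc's receptor Flt4 lies at chr11:49609263-49652739 (plus), Nrp2 at chr1:62703285-62818695 (plus), Eng at chr2:32646595-32682669 (plus), Angpt1 at chr15:42424723-42676977 (minus) and Angpt2 at chr8:18690263-18741562 (minus). UMIs were counted per gene as a whole, so no value below belongs to 1 exon, intron or isoform. Of the 10 genes, 8 had a promoter in RefSeq (GRCm38.p6). The 250 bases before the start are printed for 3 of them because the results turn on the podocyte ligand Vegfa and on its receptors, and because the deleted gene encodes a zinc finger factor of the family that binds CACCC elements. Capitals mark CACCC or, on the other strand, GGGTG. The windows are chr17:46032378-46032627 for Vegfa, chr5:147726012-147726261 for Flt1 and chr5:75978456-75978705 for Kdr, each printed 5′ to 3′ along the minus strand.
Vegfa: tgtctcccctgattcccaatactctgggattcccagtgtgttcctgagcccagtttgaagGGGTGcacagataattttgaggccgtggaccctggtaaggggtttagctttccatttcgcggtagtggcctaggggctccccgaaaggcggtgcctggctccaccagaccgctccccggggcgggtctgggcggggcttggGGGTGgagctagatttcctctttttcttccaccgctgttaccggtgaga
Flt1: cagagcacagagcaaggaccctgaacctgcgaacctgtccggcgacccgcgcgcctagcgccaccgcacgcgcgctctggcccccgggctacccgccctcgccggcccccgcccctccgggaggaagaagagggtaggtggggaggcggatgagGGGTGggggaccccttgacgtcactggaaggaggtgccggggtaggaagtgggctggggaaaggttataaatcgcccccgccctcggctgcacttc
Kdr: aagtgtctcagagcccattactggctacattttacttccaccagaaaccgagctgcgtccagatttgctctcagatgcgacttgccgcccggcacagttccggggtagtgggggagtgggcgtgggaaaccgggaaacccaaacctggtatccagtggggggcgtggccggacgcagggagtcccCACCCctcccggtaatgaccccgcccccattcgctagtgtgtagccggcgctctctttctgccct
The letters stand at 2 places before Vegfa, 1 before Flt1 and 1 before Kdr. The other 5 windows (Vegfc, Flt4, Nrp2, Tek, Eng) hold 3, 1, 3, 1 and 4 matches. Of all 32851 mouse promoter windows of this length, 52.0% hold at least 1 match. The ETS-type letters AGGAAG or CTTCCT, which can share 1 end letter with the first motif, occur at 2 places each before Flt1 and before Eng and in none of the other 6 windows, against 29.5% of all windows. These matches describe letters and are no evidence of binding.

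After filtering, controls 1 to 3 kept 16731, 3740 and 5054 nuclei, and knockouts 1 to 3 kept 18247, 4896 and 5771. Control 1 and knockout 1 stood apart from the other libraries. They held 62016616 and 52478581 UMIs against 8270961 to 12604832, and a median mitochondrial share of 2.54% and 1.09% against 0.0845 to 0.163%. Libraries with the same number shared 132, 23 and 74 barcodes, and other pairs shared 5 to 36, which is at most 1.39% of the smaller library in any pair. Among libraries 2 and 3 alone, pairs other than those of the same number shared 5 to 10. Classes were named from marker genes without using the 10 genes. In podocyte nuclei all 10 podocyte markers were higher than in other nuclei, by 14.9 (Clic5) to 358 (Nphs1) times. In endothelial nuclei all 10 endothelial markers were higher, by 9.7 (Plvap) to 38.1 (Egfl7) times. Cluster E07, of 75 endothelial nuclei, had the highest score for glomerular endothelium (1.53, with 6 raised markers). It was left unnamed because its 10 leading genes, headed by Calca and Tspan8, held Myh11, a marker of mural cells, and none of its own markers, so the endothelium of the glomerulus was not compared on its own.

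Vegfa was highest in podocytes. Levels are given as CPM, the UMIs of a gene scaled to a common total of UMIs in each class and library. Podocyte Vegfa was 787, 1349 and 1607 CPM in controls against 966, 1349 and 1346 CPM in knockouts, from 154, 62 and 48 control and 257, 61 and 80 knockout nuclei. The knockout values lie inside the range of the controls. The fitted change was log2 0.042 ± 0.29 (SE, 95% interval -0.60 to 0.69, edgeR quasi-likelihood test, adjusted p = 0.983). Changes within that interval remain compatible with these values. The interval does not give the size of change that would have been called. The libraries numbered 1 gave a log2 ratio of 0.30 and the means of libraries 2 and 3 one of -0.13. Of the 1966 genes tested in podocytes 4 were called (0.203%), and Vegfa was the only one of the 10 genes to pass the filter on low counts there.

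In podocytes Klf4 itself was too sparse to check the labels, with 1, 0 and 0 control UMIs against 4, 0 and 1 knockout UMIs. In endothelial nuclei, which the Cre does not target, Klf4 gave 15, 1 and 11 UMIs in controls and 17, 1 and 12 in knockouts. A UMI from outside a deleted part can also remain after recombination, and the deleted part is not given in the sources used here.

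The other ligands and the receptors were low in podocytes. Flt1 gave 12, 9 and 7 UMIs in control podocytes and 5, 1 and 2 in knockout podocytes. As CPM this was 30.9, 128 and 72.6 against 12.5, 16.3 and 19.9, and the groups did not overlap (exact permutation test, two-sided p = 0.1, the smallest that 3 against 3 libraries allow). In 7 tubule classes, which are not known to use this receptor, mean Flt1 CPM was 15.7 to 41.7. The summed endothelial markers in podocyte nuclei were also lower in the knockouts, at 152.1 to 197 CPM in controls and 79.7 to 125 CPM in knockouts, with 9 of 10 detected and Egfl7 at 0. Summed proximal tubule markers (10 of 10 detected) were 5879.8 to 6663 CPM in control and 1561 to 5309 CPM in knockout podocytes, and injured tubule markers (3 of 6 detected) 128 to 280 and 350.2 to 568 CPM, with no overlap in either. The part of RNA from other cells in the podocyte values was not tested. Flt4 had 0 UMIs in all 662 podocyte nuclei, which allows a share of nuclei with a UMI of up to 0.453%. Angpt1 stood at 61.9, 28.4 and 31.1 CPM against 62.5, 48.8 and 9.97, the lowest mean of any class. Nrp2 had 27, 3 and 2 control and 20, 6 and 2 knockout UMIs, and Vegfc 1, 0 and 0 against 5, 0 and 4. Kdr, Tek, Eng and Angpt2 had at most 12 UMIs in any library.

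The plot of all 10 genes by class shows that most of them stand highest in 1 or 2 classes. Its rows are the 14 classes with at least 10 nuclei in every library.

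**Figure D1:**
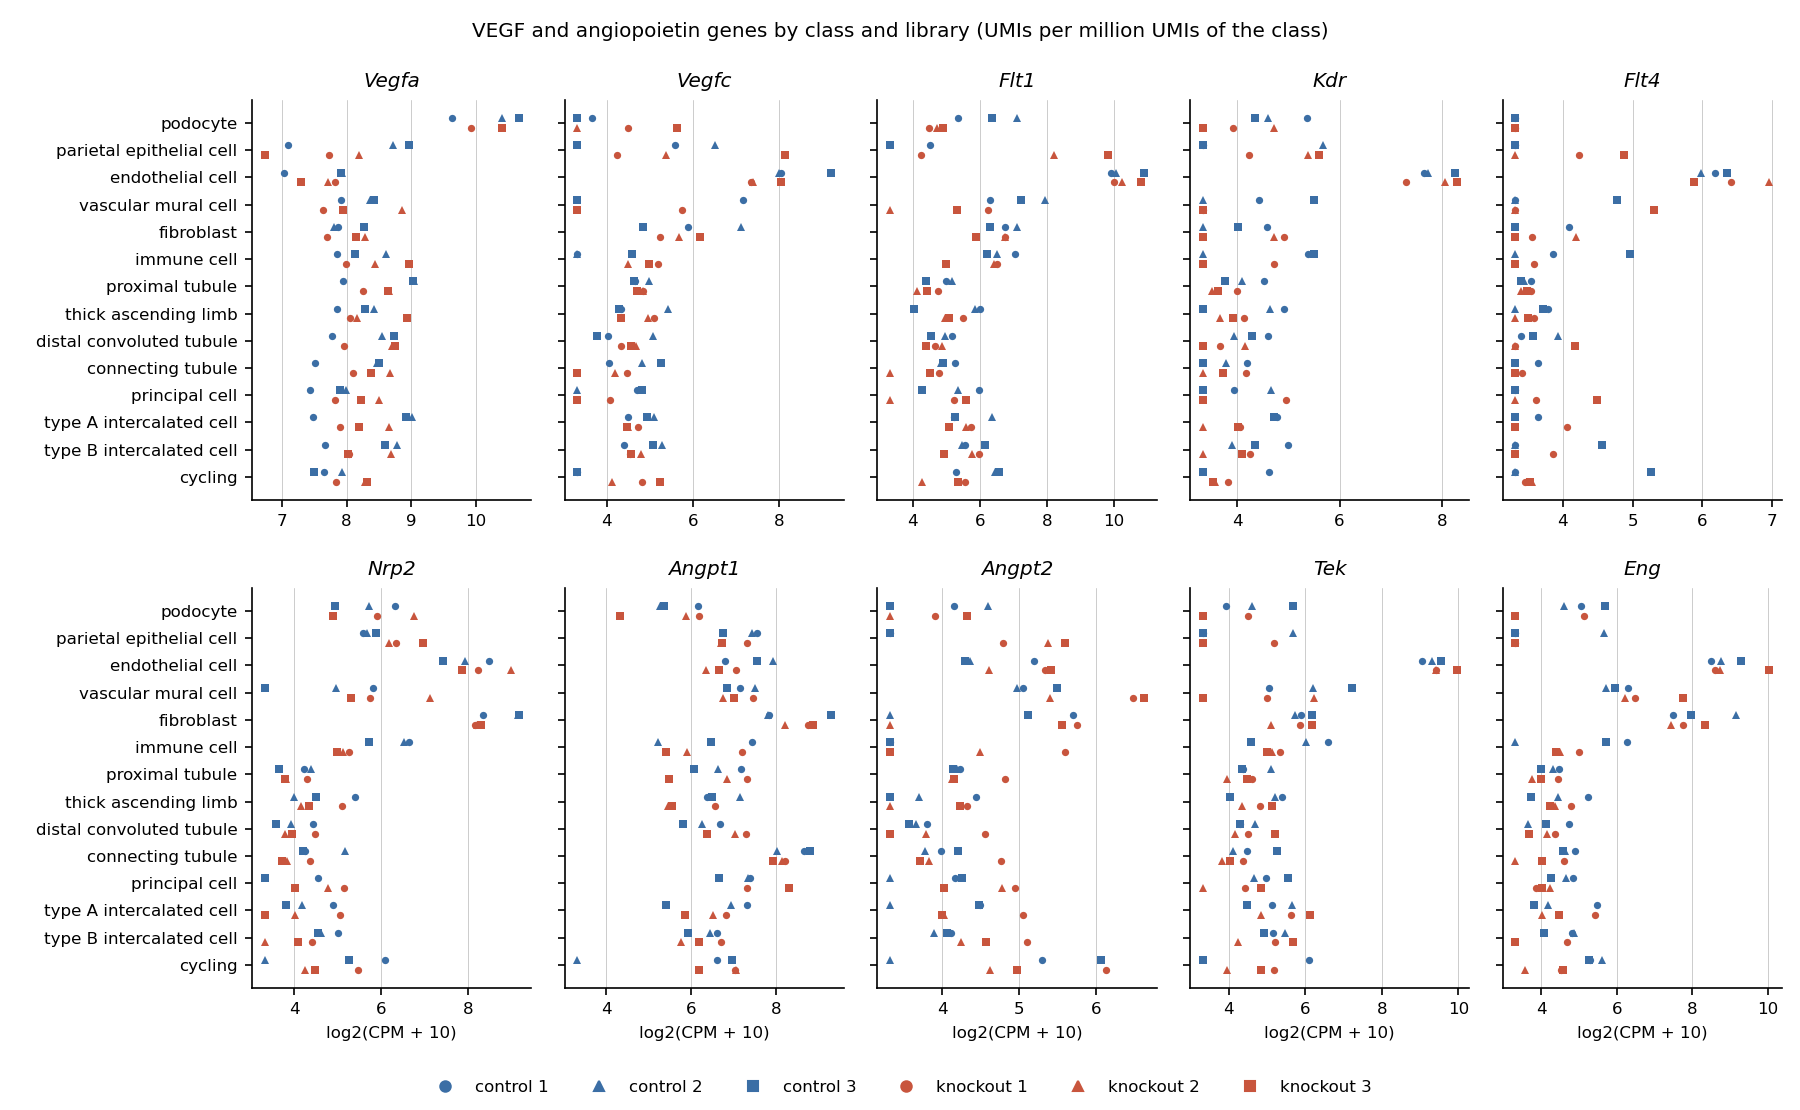
Level of each gene in each class, as log2(CPM + 10), with 1 point per library (controls blue, knockouts red, symbols for the library number). Vegfa stands highest in podocytes, Flt1, Kdr, Flt4 and Tek in endothelial nuclei, and control and knockout points mix in nearly every row.

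Away from the podocyte, Vegfa was present in every class at a lower level. The proximal tubule came next, at a mean of 391 CPM over 6 libraries, and did not overlap with podocytes (at most 517 against at least 787 CPM). From there down to the endothelium, last at 192 CPM, each class overlapped with the next. Because the proximal tubule holds so many nuclei, it carried 56.2% of control and 46.5% of knockout Vegfa UMIs, and podocytes carried 2.74% and 3.57%. Proximal tubule Vegfa was 237, 517 and 514 CPM in controls and 294, 393 and 389 in knockouts. It was lowest in both libraries numbered 1. The class was made of different clusters in the libraries: P03 had 79, 89 and 122 control and 3334, 682 and 91 knockout nuclei, P12 had 13, 174 and 1202 against 32, 10 and 7, and P15 and P23 held 1018 and 404 nuclei of knockout 3. Vegfa pooled over libraries was 383 CPM in P03, 572 in P12, 456 in P15 and 261 in P23, and the part of this makeup in the class values was not tested. The fitted change of the class was log2 -0.23 ± 0.29 (adjusted p = 0.884). Over the 14 classes, fitted Vegfa changes ran from log2 -0.57 in parietal epithelial nuclei to 0.53 in cycling nuclei, 7 of them up and 7 down. In injured tubule nuclei, found almost wholly in the knockouts, Vegfa was 160, 200 and 169 CPM, below the proximal tubule of the same libraries in all 3 knockouts.

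The VEGF receptors and Tek were highest in endothelial nuclei, and their levels did not overlap with those of any other class. In endothelial nuclei Flt1 was 940, 1062 and 1880 CPM in controls and 1018, 1202 and 1753 in knockouts. The highest value in each group was library 3, and the groups overlapped throughout. The fitted change was log2 -0.021 ± 0.32 (95% interval -0.75 to 0.70). Kdr, the receptor that carries most VEGF-A signalling, was 190, 202 and 297 CPM in controls and 147, 258 and 303 in knockouts (log2 -0.081 ± 0.31, interval -0.78 to 0.62). Flt4 was 62.3, 53.1 and 72.0 CPM against 74.9, 115 and 49.1 (log2 0.18 ± 0.37, interval -0.65 to 1.02). None of the 3 receptors separated the groups.

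Tek, the angiopoietin receptor, was 522, 627 and 734 CPM in controls and 679, 673 and 983 in knockouts (log2 0.26 ± 0.25, interval -0.30 to 0.81). Tek was higher in each knockout than in the control of the same number, and with the number as a block the adjusted p was 0.85 (edgeR). The labels do not say what libraries of equal number share. Eng was 350.0, 425 and 614 CPM against 379.9, 415 and 1040, so that 1 knockout library exceeded all others (log2 0.34 ± 0.39, interval -0.54 to 1.22). Nrp2 was 347, 234 and 163 CPM against 288, 501 and 221 (log2 0.28 ± 0.39, interval -0.60 to 1.16). The groups overlapped for all 3 genes, and none was called with or without the block. Angpt2, made by endothelium when vessels remodel, had 1 to 11 UMIs a library and was not tested.

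**Figure D2:**
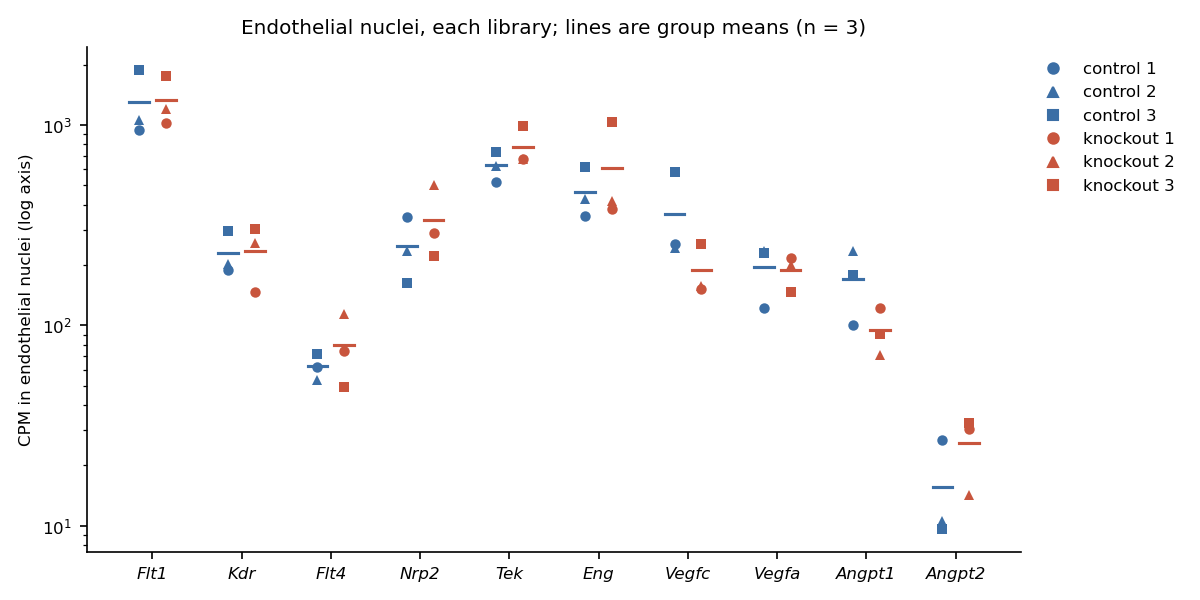
CPM of the 10 genes in endothelial nuclei on a log axis, with 1 point per library and lines at the group means (n = 3). The receptors overlap between groups, and Vegfc is the gene with the lowest knockout points relative to controls, at 153 and 157 CPM against at least 244.

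Vegfc had the smallest unadjusted p of the 9 genes tested in endothelium. It was 255, 244 and 580 CPM in controls and 153, 157 and 254 in knockouts, from 230 control and 97 knockout UMIs. Control 3 alone gave 121 of the control UMIs, and knockout 3 lay between controls 1 and 2. The fitted change was log2 -1.002 ± 0.37 with an unadjusted p of 0.0236 from edgeR and an adjusted p of 0.9996, and without control 3 it was log2 -0.53. Vegfc was lower in each knockout than in the control of the same number (adjusted p of 0.0868 with the number as a block, edgeR). That block assumes a pairing that the labels do not state. Angpt1 was 101, 234 and 177 CPM against 122, 71.6 and 90.1 (log2 -0.72 ± 0.36, interval -1.53 to 0.10).

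Over the endothelial class, 0 of 3657 genes were called (0%), with 89 at an unadjusted p under 0.05, and DESeq2 called 0 as well. Of the 10 genes 9 were tested, 4 with a positive and 5 with a negative fitted change, at a median of log2 -0.021 against -0.0059 for all genes tested. The summed proximal tubule markers, a measure of tubular RNA in these nuclei, were 4097 to 8850 CPM in control and 2171 to 7395 CPM in knockout endothelium, with all 10 markers detected. Injured tubule markers (6 of 6 detected) were 21.2 to 57.6 CPM in control and 85.9 to 147 CPM in knockout endothelium, cycling markers (6 of 6) 10.6 to 38.4 and 86.0 to 200.4 CPM, and type A intercalated markers (6 of 6) 53.1 to 86.3 and 0 to 25.0 CPM, none with overlap. These lists were picked from the marker lists of all classes after the values were seen, and the groups overlapped for every other list. The part of these in the endothelial values was not tested.

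Within the endothelium, Vegfc was concentrated in arterial-like nuclei, as the plot of Angpt1 and Vegfc by cluster shows. These nuclei, 9.60 to 15.5% of control and 8.53 to 17.4% of knockout endothelial nuclei, had a Vegfc level of 899, 757 and 1644 CPM in controls and 787, 982 and 813 in knockouts, and the groups overlapped. Peritubular-like nuclei had 0 to 64.2 CPM. The clusters called neither arterial nor peritubular had 256, 347 and 397 CPM in controls and 128, 93.2 and 158 in knockouts, with no overlap, from 52 and 21 UMIs (exact permutation test, two-sided p = 0.1, the smallest possible). In each of the 3 clusters joined there the groups overlapped, with 426, 294 and 43.5 CPM against 188, 169 and 0 in E03 and 127, 765 and 806 against 92.3, 0 and 250.1 in E07. Tek in arterial-like nuclei was 373, 379 and 469.6 CPM in controls against 840.0, 655 and 488 in knockouts, from 57 and 50 UMIs, with no overlap and an exact permutation p of 0.1. All 10 genes were looked at in each kind, and the groups overlapped in every other pair of a gene and a kind. By single cluster, Tek also separated in E01 (523, 763 and 800 CPM against 865, 854 and 1191) and in E08. Flt4 and Nrp2 did so in E03, and all of these were higher in knockouts. A p of 0.1 means that 0.1 of all assignments of libraries to groups differ as much. The share of all genes that separate was not counted. All these separations were picked out after the values were seen. Flt1, Kdr and Nrp2 were arranged the other way, with Flt1 at 1204 to 2590 CPM in peritubular-like nuclei and 163 to 755 in arterial-like ones. Nrp2 had 3 control and 0 knockout UMIs in arterial-like nuclei, against 130 and 102 in peritubular-like ones. Kdr had 2 UMIs in control and 3 in knockout arterial-like nuclei, against 119 and 82 in peritubular-like ones.

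**Figure D3:**
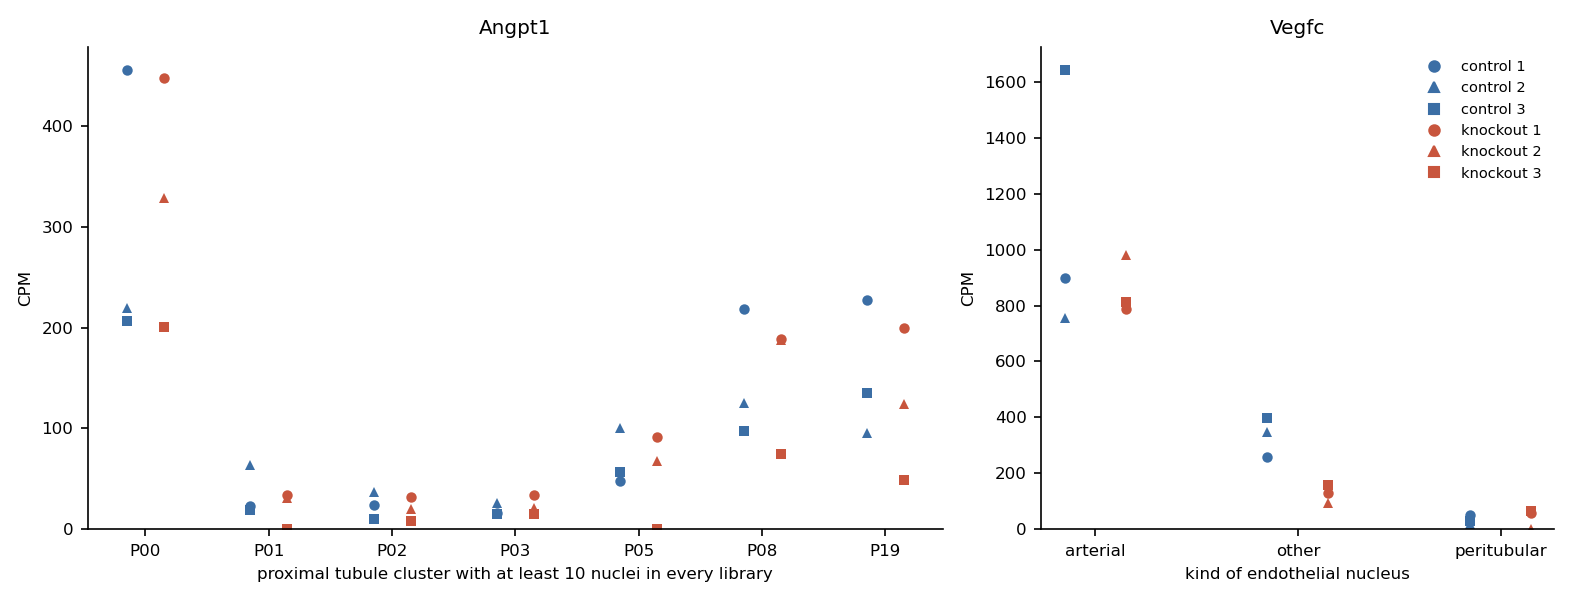
Left, Angpt1 CPM in the 7 proximal tubule clusters with at least 10 nuclei in every library; right, Vegfc CPM in 3 kinds of endothelial nuclei, with 1 point per library. Angpt1 is highest in cluster P00, at 201 to 456 CPM, with P08 and P19 between it and the rest, and Vegfc is highest in arterial-like nuclei in all 6 libraries.

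Angpt1, the TEK agonist, was found in several unlike classes. Fibroblasts had the highest mean level of the 14, at 218, 214.5 and 619 CPM in controls and 424, 285 and 457 in knockouts, and control 3 was the highest library. The connecting tubule followed at 391, 250 and 438 CPM in controls and 286, 271 and 233 in knockouts (log2 -0.48 ± 0.24, interval -1.01 to 0.05). Principal cells, the next class by mean, had 157, 153 and 91.3 CPM against 150, 308 and 307. There the fitted change had the opposite sign, log2 0.77 ± 0.34, with an unadjusted p of 0.0465 from edgeR and an adjusted p of 0.999. It was seen in libraries 2 and 3, whose means gave a log2 ratio of 1.33, while the libraries numbered 1 gave -0.065. Each of the first classes in this order overlapped with the next.

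Arterial-like endothelial nuclei reached like levels, at 153, 541 and 486 CPM in controls and 210.0, 109 and 325 in knockouts, from 48 and 17 UMIs. The groups overlapped there.

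Angpt1 was not spread evenly over the proximal tubule. Pooled over libraries it was highest in P24, of 343 nuclei, at 671 CPM, with 686 and 635 CPM in control 1 and knockout 1 and at most 5 nuclei in each other library. In cluster P00, of 5480 nuclei led by Cyp24a1 and Slc5a12, it stood at 201 to 456 CPM over the 6 libraries, and in P02, of 4474 nuclei led by Cyp7b1 and Slc22a19, at 7.79 to 36.5 CPM. Angpt1 took no part in the clustering. In P00 the groups overlapped, with 456, 219 and 207 CPM in controls and 448, 329 and 201 in knockouts. Over all classes where Angpt1 was tested, 10 in number, 5 fitted changes were positive and 5 negative, from log2 -0.77 in the thick ascending limb to 0.77 in principal cells.

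Angpt2, the context-dependent antagonist, was highest in thin limb nuclei. Control 1 and control 2 had 300.3 and 159 CPM, from 101 and 2 UMIs, and the knockouts had 106, 130 and 345 CPM, from 9, 3 and 39 UMIs. Control 3 had no thin limb nuclei, so no test was made. Among classes with enough nuclei in every library, vascular mural cells came first, at 23.1, 21.4 and 34.9 CPM in controls and 79.7, 32.4 and 88.8 in knockouts. These values rest on 7 control and 15 knockout UMIs, and the groups overlapped by 1 library.

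Nrp2 and Eng were shared between endothelium and fibroblasts. Fibroblast Nrp2 was 316, 558 and 563 CPM in controls and 275, 285 and 303 in knockouts, and the groups did not overlap. The fitted change was log2 -0.72 ± 0.26, with an unadjusted p of 0.0166 and an adjusted p of 0.516 (edgeR), where 1 of 3474 genes was called (0.0288%). The difference was smaller between the libraries numbered 1, at a log2 ratio of -0.20, than between the means of libraries 2 and 3, at -0.93. Fibroblast Eng was 168, 558 and 241 CPM against 207, 163 and 315 (log2 -0.21 ± 0.37), with overlapping groups.

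In all, 46 of 140 pairs of a gene and a class passed the filter on low counts, and none of the 46 was called by edgeR. An unadjusted p under 0.05 was reached in 3 (Vegfc in endothelium, Nrp2 in fibroblasts, Angpt1 in principal cells), the smallest adjusted p was 0.516, and DESeq2 called 0 of these genes in any of the 14 classes. Of all genes tested with edgeR, 2.43%, 7.69% and 4.38% had an unadjusted p under 0.05 in those classes. Over the 14 classes this share ran from 2.43% in endothelium to 15.3% in parietal epithelial cells. The background was low as well. edgeR called 0% of genes in the connecting tubule, principal, cycling and mural classes, where unadjusted p-values under 0.05 numbered 308, 134, 369 and 122. DESeq2 called 13 of 20156, 0 of 17573, 8 of 18627 and 0 of 15657 genes there. The edgeR share was 0.0131% in the thick ascending limb, 0.0151% in the distal convoluted tubule and 0.0382% in the proximal tubule. It was 0.0206% and 0.048% in type B and type A intercalated cells, 0.149% in immune cells and 0.922% in parietal epithelial cells.

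**Figure D4:**
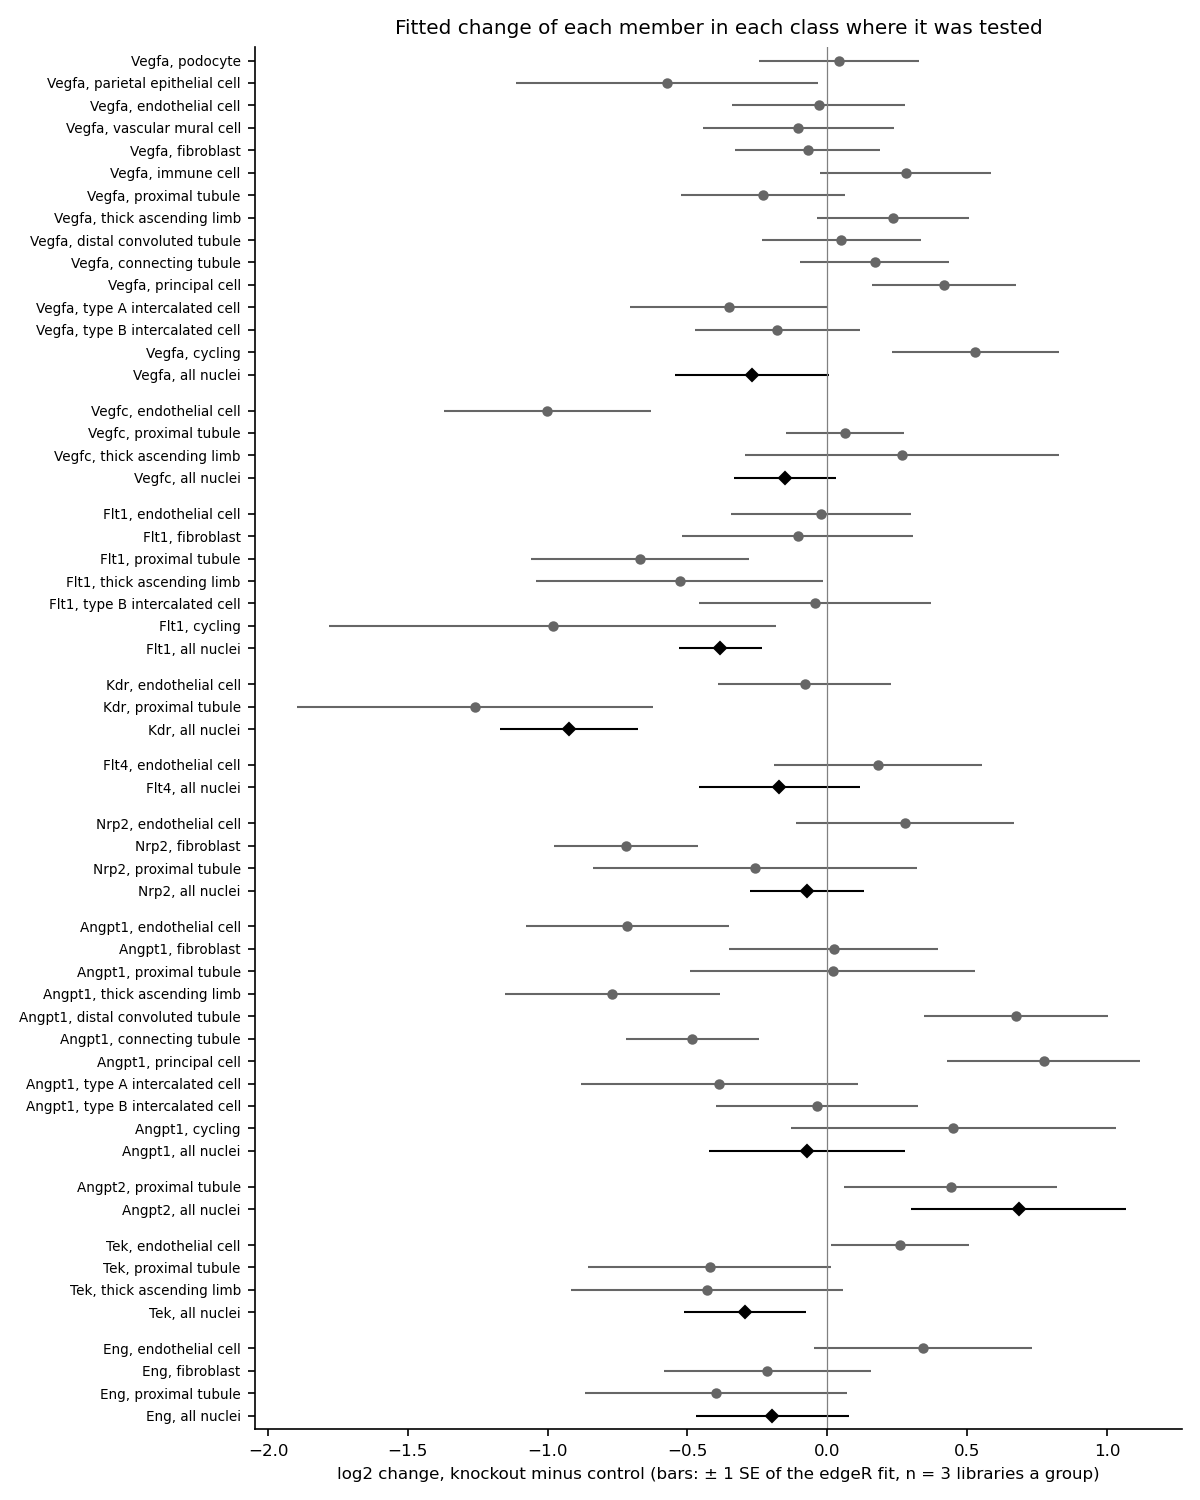
Fitted log2 change, knockout minus control, of each gene in each class where it was tested, with bars of 1 SE (edgeR, n = 3 libraries a group) and black diamonds for all nuclei summed. None of the plotted changes was called, and Kdr over all nuclei lies at -0.92 with an SE of 0.25.

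Parietal epithelial cells line the capsule that faces the podocytes, and here 57 control and 105 knockout nuclei were named so. Of 6 markers Ncam1 (64.6 times other nuclei), Akap12 (56.3), Dkk3 (9.72) and Cldn1 (5.61) carried the name, while Pax2 and Pawr stood at 1.79 and 0.923 times. Nrp1, a co-receptor for VEGF-A and semaphorins on the wider pathway list, was the 1 listed gene that passed the filter there and it rose: 127, 81.9 and 97.5 CPM in controls against 495, 911 and 1100 in knockouts. The change was log2 2.88 ± 0.46 (adjusted p = 0.0226, edgeR), and 8 of 868 genes were called. UMIs of Nrp1 were found in 27 of 52, 14 of 27 and 15 of 26 knockout nuclei, and in 9 of 28, 2 of 15 and 2 of 14 control nuclei. Summed cycling markers (6 of 6 detected) were 0 CPM in all 3 control libraries and 115, 94.3 and 38.6 CPM in the knockouts. Summed injured tubule markers (5 of 6) were 123 to 634 CPM in controls and 486 to 943 in knockouts, with overlap. The part of either in the Nrp1 values was not tested. The call was lost without control 2 (adjusted p = 0.130), control 3 (0.0557) or knockout 2 (0.0777), at log2 changes of 2.75 to 2.94.

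Flt1 in the same nuclei gave 1, 0 and 0 UMIs in controls and 1, 9 and 46 in knockouts. It missed the low-count filter. Without that filter edgeR called 79 of 14419 genes, among them Flt1 (log2 5.15, adjusted p = 4.1e-06), the only call on the 10 genes in any fit. DESeq2 did not call it (log2 5.38, adjusted p = 0.369). Filtered edgeR fits that kept it did not either, at adjusted p = 0.403 without control 2 and 0.207 without control 3. The UMIs sat in few nuclei: 5 nuclei in knockout 3, of which 1 held 37, and 2 nuclei in knockout 2, of which 1 held 8. Endothelial markers in these nuclei summed to 48.7 to 88.6 CPM in controls and 31.4 to 124 CPM in knockouts, with 8 of 10 detected and Egfl7 and Ehd3 at 0, and in knockouts 2 and 3 Tek, Eng, Pecam1 and Emcn had 0 UMIs. Vegfc showed a like pattern, with 14 UMIs in 4 nuclei of knockout 3 and 0 to 3 UMIs in each other library. Fibroblast markers (4 of 7 detected) summed to 386 CPM in the parietal nuclei of knockout 3 and to 0 to 35.3 CPM in the other 5 libraries, and their part in both genes was not tested.

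When all nuclei of a library were summed, Kdr was lower in every knockout library, and the groups did not overlap. Kdr was 20.5, 17.2 and 17.8 CPM in controls and 11.8, 6.92 and 11.8 in knockouts (log2 -0.92 ± 0.25, interval -1.51 to -0.34, unadjusted p = 0.00707, adjusted p = 0.230, edgeR), in a comparison where 31 of 16130 genes were called (0.192%). In such a sum fewer cells of a type and less RNA per cell cannot be told apart. Flt1 was 67.7, 82.4 and 89.2 CPM against 63.5, 53.6 and 73.8, with overlap (log2 -0.38 ± 0.15, adjusted p = 0.445). Tek, Eng, Flt4 and Nrp2 had fitted changes of log2 -0.29, -0.20, -0.17 and -0.073. Over all 10 genes 9 fitted changes were negative, at a median of log2 -0.18 against -0.027 for all genes tested, and Angpt2 was the exception at 0.68 ± 0.38.

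Named endothelial nuclei alone did not separate the groups for Kdr, as given above. Named endothelial nuclei held 10.9% of control and 17.5% of knockout Kdr UMIs. Nuclei left mixed or unnamed, some of which carried endothelial and tubular markers together, gave 8.70, 10.6 and 8.45 Kdr UMIs, scaled like CPM to all UMIs of the library, in controls and 5.33, 3.34 and 6.77 in knockouts, with no overlap. Proximal tubule nuclei gave 7.39, 2.19 and 2.16 against 2.66, 0.576 and 0.891. The fitted Kdr change within the proximal tubule was log2 -1.26 ± 0.64 (adjusted p = 0.749), at levels of at most 13.1 CPM. It was -0.54 without control 1, which gave 359 of the 401 control UMIs, and -2.11 without knockout 1.

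**Figure D5:**
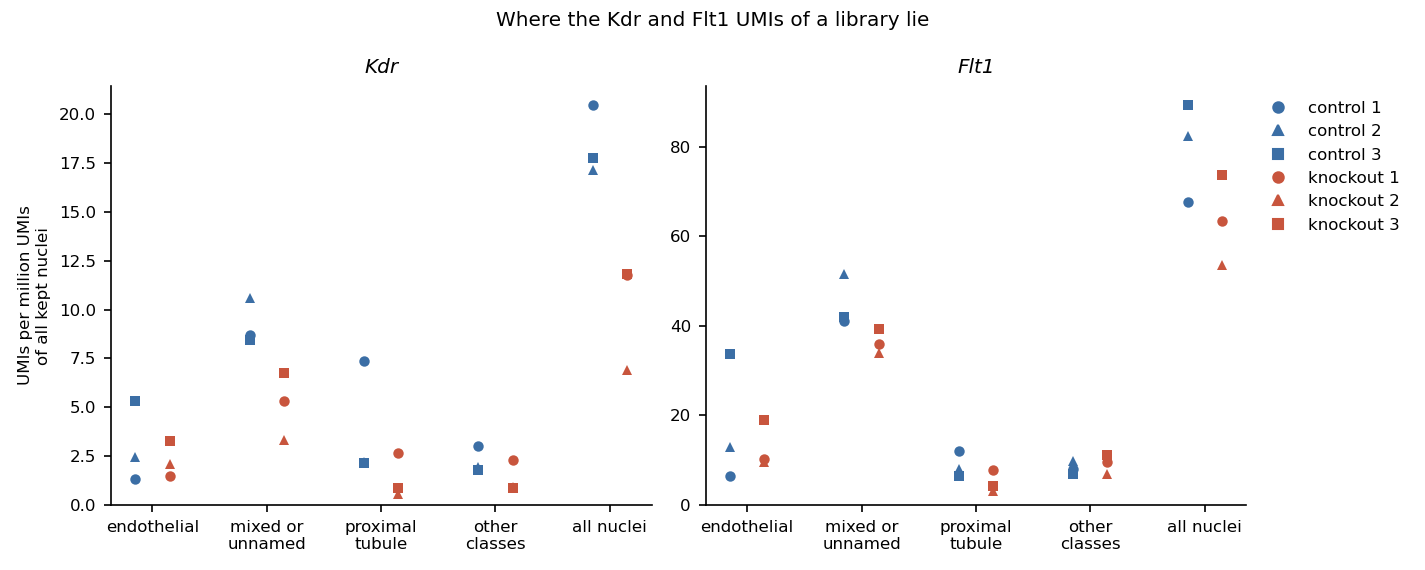
Kdr and Flt1 UMIs scaled like CPM to all kept nuclei of a library, split by the nuclei that carry them, with 1 point per library. For Kdr the mixed or unnamed nuclei and the total separate the groups, and the named endothelial nuclei do not.

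The ratio of both receptors is given as a description, with UMIs pooled over libraries and no test. Per 100 Flt1 UMIs, control nuclei held 17.9 Kdr UMIs in named endothelium, 20.1 in mixed, 22.3 in unnamed and 55.0 in proximal tubule nuclei. In knockouts the same values were 16.2, 14.7, 14.6 and 31.4. By library, endothelial and mixed nuclei overlapped in controls (15.8 to 20.2 against 18.05 to 21.96), and in knockout 2 the endothelial ratio of 21.4 was above the proximal tubule one. Proximal tubule nuclei had 60.8, 27.0 and 32.9 Kdr UMIs per 100 Flt1 UMIs in controls and 34.5, 18.5 and 20.8 in knockouts, from 5 to 359 Kdr UMIs. Endothelial nuclei made up 1.18, 2.94 and 4.02% of control and 1.41, 1.67 and 2.58% of knockout nuclei, with overlap (exact permutation test, two-sided p = 0.5).

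A wider list of 34 genes of these pathways was followed in the same fits: further ligands, receptors, partners, targets and oxygen sensors. In podocytes 5 passed the filter and 0 were called. Sema3g, a secreted semaphorin that podocytes and arteries express, had the smallest p there, at 433, 213 and 352 CPM in controls and 100.1, 195 and 140 in knockouts with no overlap (log2 -1.33 ± 0.37, unadjusted p = 0.00539, adjusted p = 0.233, edgeR). Nrp1 (log2 -0.27 ± 0.29) and Foxo1, a forkhead factor that TEK signalling restrains (log2 -0.31 ± 0.39), came next. In endothelium 20 passed, 0 were called and 0 had an unadjusted p under 0.05 in edgeR, while 12 fitted changes were positive and 8 negative. Sema3g again had the smallest p (log2 -1.03 ± 0.48), followed by Rcan1, a calcineurin regulator induced by VEGF (0.52 ± 0.33), and Plxnd1, a semaphorin receptor (-0.38 ± 0.34).

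Over all nuclei 30 of the 34 passed and 0 were called by edgeR, with 9 positive and 21 negative fitted changes and 6 at an unadjusted p under 0.05. Their median was log2 -0.16 against -0.027 for all 16130 genes tested. Of those genes 9.90% had an unadjusted p under 0.05 in edgeR. The most negative fitted changes were those of Esm1, a VEGF-induced gene of endothelial tips, and of Sema3g, both named after their values were seen. Esm1 was 7.18, 5.55 and 5.86 CPM in controls and 3.05, 0.807 and 1.69 in knockouts (log2 -1.75 ± 0.46, adjusted p = 0.224), and Sema3g 11.3, 9.55 and 12.2 against 4.77, 4.61 and 4.45 (log2 -1.32 ± 0.22, adjusted p = 0.0843). Neither gene's groups overlapped. DESeq2 called both (adjusted p = 0.0223 for Esm1 and 0.000328 for Sema3g) and none of the 10 genes, in a fit that called 461 of 26841 genes. The targets on the list, 11 tested, had 9 negative fitted changes, and the oxygen sensors, 4 tested, had 2. Their medians were log2 -0.18 and -0.23, and the share of negative changes over all genes was not counted.

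Genes whose mean level followed each of the 10 most closely over the 14 classes were found by Pearson's r of log2(CPM + 10) among 10288 genes, as a description with no p, since all points share the same libraries. Vegfa was most like Col4a3, a basement membrane collagen chain that podocytes make (r = 0.92), 4921504A21Rik (0.92) and B3galt2 (0.92). For Flt1 these were Helz2 (0.98), Sema7a (0.95) and Tmem184b (0.95), and for Kdr Rnf125 (0.97), Ccm2l (0.96) and S1pr1 (0.96). Tek was most like Abi3 (0.99), Ptprb (0.99), the phosphatase that removes its phosphate groups, and Exoc3l2 (0.98). Eng was most like Ldb2 (0.99), Gm43507 (0.99) and Prex2 (0.98), and Flt4 like Tll1 (0.99), Arhgef15 (0.98) and Cd38 (0.98). Vegfc followed Ptpru (0.96) and Gja1 (0.94), and Nrp2 followed Ets1 (0.98), Man1c1 (0.95) and Asap1 (0.95). Angpt2 was nearest to Serpine2 (0.91), Eri1 (0.89) and Sap30l (0.88). Angpt1, with several unrelated source classes, had no match above 0.79 (Nae1, Lpar1 and Tbx2 at 0.79, 0.79 and 0.78).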

How the data were processed

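Single-nucleus libraries of kidney cortex from 3 control and 3 knockout mice were analysed. The authors deposited raw UMI counts per gene and barcode, produced by Cell Ranger (version 3.1.0 per the file headers). The submitters' processing notes give mm10 and also name Seurat, with no role. Aligner settings and annotation release are not given in the sources used here.

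A barcode was kept if it had 300 genes or more and no more than 5% mitochondrial UMIs. The automatic threshold of Scrublet (scanpy 1.11.5) marked 0 to 9 barcodes a library, so the highest scores were removed at 0.8% per 1000 barcodes. Counts were log-scaled and centred per library, and clustered with Leiden (igraph 0.11.9) on 3000 variable genes without the 10 genes and 34 listed pathway genes. Clusters scoring under 0.3 for every other class in a first round were taken as proximal tubule, the bulk of the nuclei, with no test of its own markers. The rest were named from fixed markers (mean log2 ratio of at least 1.0, or 0.5 for kinds of endothelium, and at least 3 raised markers). A cluster stayed unnamed if, among its 10 leading genes, a different class had a larger number of markers. Clusters with a second class at 0.5 of that score or more, or with high proximal tubule markers, were left mixed. The naming thresholds were chosen with the clusters in view, so class names may differ from the study's own. Each name means a class like that cell type.

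UMIs were summed per library and class with at least 10 nuclei in every library and fitted with edgeR 4.0.16 (quasi-likelihood test, TMM, filterByExpr by group, no covariates). Genes were called at 0.05 after Benjamini-Hochberg adjustment over all genes tested. SE is the fitted log2 change over the square root of F, and intervals are 95% t intervals on the fit's degrees of freedom. CPM scales each gene's UMIs to the class total. The fit was tested on simulated counts. Intervals rest on the dispersion of the fit, which is estimated from the spread between libraries of a group. The upper limit for a count of 0 (3 counts) covers counting error alone. Neither covers error from filtering or naming nuclei. DESeq2 1.42.0 was an alternative.

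Replicate numbers come from the sample titles. Over all nuclei, deviations from the group means correlated at 0.72, 0.39 and 0.46 across 16130 genes between libraries of the same number. Unlike numbers correlated as well among libraries 2 and 3: control 2 with knockout 3 at 0.43, and control 3 with knockout 2 at 0.44. Control 1 and knockout 1 correlated at -0.59 to -0.53 with the libraries of other numbers in the opposite group. These correlations over all nuclei do not settle whether equal numbers pair libraries 2 and 3. Shared barcodes were more numerous there between equal numbers, at 23 and 74, than between unlike ones, at 5 to 10. What equal numbers share is not given in the labels and was not tested. The block by number was therefore an alternative only. Between libraries of the same number the values were 0.22, 0.040 and 0.14 in podocytes, and 0.57, 0.084 and 0.42 in endothelium. Control 3 with knockout 2 gave 0.11 in podocytes and 0.16 in endothelium, above the 0.040 and 0.084 of the libraries numbered 2. In the thick ascending limb equal numbers gave 0.58, 0.21 and 0.26, and unlike ones among libraries 2 and 3 gave 0.066 and 0.18. In the proximal tubule equal numbers gave 0.67, 0.29 and 0.34, and those unlike ones 0.28 and 0.41.

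The 10 genes, the pathway list and the tests were chosen with earlier results of these data known. The text names the 10 genes, listed genes past the threshold, and in podocytes and endothelium otherwise the 3 smallest p. The fits planned for glomerular endothelium were not run, for want of a named cluster. Of the genes nearest in pattern to the 10, 1 is not reported here.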

Additional observations from a re-analysis of the deposited data

How the results depend on the processing

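Of the 10 genes, none was called in podocytes, in endothelium or over all nuclei in any of the alternatives run, and 1 was called in another class (Flt1 in parietal epithelial cells, 1 call without the low-count filter). The number of genes called moved more, and the number tested differed between settings as well. In podocytes, 4 of 1966 genes tested became 40 of 16844 with DESeq2 and 97 of 16852 without the low-count filter. The replicate block gave 8 of 1966 there. Podocyte calls were 304 of 1800 without both libraries numbered 1 and 9 of 9932 with classes by highest marker score. In endothelium, 0 of 3657 became 15 of 18474 without the filter, 20 of 3657 with the block and 1 of 9753 with classes by highest score. Over all nuclei, 31 of 16130 became 461 of 26841 with DESeq2, 76 of 26878 without the filter and 279 of 16130 with the block. It was 462 of 16020 without both libraries numbered 1. A stricter nucleus filter (at least 500 genes and at most 1% mitochondrial UMIs) gave 57 of 15534. Leaving out 1 library gave 0 to 333 calls in podocytes and 0 to 39 over all nuclei. The highest were 333 of 2237 and 39 of 16611, both without knockout 1. The cause of these shifts was not tested.

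Fitted changes near 0 turned sign. Vegfa in podocytes was log2 -0.098 without both libraries numbered 1, -0.023 with doublets kept and -0.041 with classes by highest score, and -0.17 to 0.23 with 1 library left out. Endothelial Kdr was 0.089 without both libraries numbered 1, Flt4 -0.30 when these genes took part in the clustering and Tek -0.035 with classes by highest score. With 1 library left out, endothelial Flt1 ran from -0.27 to 0.30, Kdr from -0.33 to 0.17, Flt4 from -0.0072 to 0.41, Nrp2 from -0.0085 to 0.74 and Eng from -0.27 to 0.57.

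Sema3g over all nuclei was called with the replicate block (log2 -1.32, adjusted p = 0.0444, edgeR), and both Sema3g (-1.28) and Esm1 (-2.15) were called without both libraries numbered 1. Podocyte Sema3g was called without the low-count filter (-1.35, adjusted p = 0.0385, edgeR), and Nrp1 in parietal epithelial cells was not called with doublets kept (2.82, adjusted p = 0.0528, edgeR). Kdr over all nuclei stayed between -1.04 and -0.69 and was never called, with an adjusted p of 0.0685 under the block. The block changed no other call on a gene named here. Depth limits the small classes (868 genes tested in parietal, 1103 in mural and 1966 in podocyte nuclei), and with the stricter filter most classes of control 1 fell under 10 nuclei, so those fits could not be made.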
